A study of Homo sapiens with 4 samples.

Results

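The 9 Hedgehog pathway genes described here are GLI1, GLI2, GLI3, PTCH1, SMO, SUFU, HHIP, IFT88 and KIAA0586. They were taken by symbol from the 58735 genes of an RNA sequencing count table, and all 9 were found by Ensembl identifier. RNA came from MDA-MB-231 and SUM159 cells, which are established human triple-negative breast cancer (TNBC) lines, after 72 h with 1 μM mebendazole (MBZ), a benzimidazole anthelmintic that binds tubulin, or with its vehicle DMSO. No other agent or allele was named for any of the 4 groups. Each of the 4 conditions was 1 library, so no spread between cultures could be measured. Both models are 1 line each, grown in culture without the other cells of a tumour.

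In Hedgehog signalling, a secreted ligand binds PTCH1, the receptor, which otherwise holds the membrane protein SMO inactive. Active SMO acts at the primary cilium to free the GLI transcription factors from SUFU, and GLI proteins then raise the transcription of target genes that include GLI1 itself, PTCH1 and HHIP, the last of which encodes a protein that binds the ligand outside the cell. GLI1 acts as an activator, GLI2 mainly as an activator and GLI3 mainly as a repressor. IFT88, a part of the transport machinery that builds the cilium, and KIAA0586, also called TALPID3, a centriolar protein, are needed to make a cilium and for Hedgehog signalling.

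The libraries held between 17143139 and 24897586 counts, and levels are given in CPM, the usual unit of counts scaled to library size, after TMM normalization over the 4 libraries. The smallest level that 3 counts can give was between 0.129 and 0.181 CPM. The oestrogen receptor gene ESR1 had 1, 0, 2 and 18 counts in the order MDA-MB-231 DMSO, MDA-MB-231 MBZ, SUM159 DMSO and SUM159 MBZ, and the progesterone receptor gene PGR had 0 in all 4. VIM, a mesenchymal marker, stood at 1089 CPM or more in every library, while the epithelial marker CDH1 was at or under 0.631 CPM. EPCAM, also an epithelial marker, was not as low in the MDA-MB-231 line, at 6.195 CPM with DMSO and 9.995 CPM with MBZ. In SUM159 cells EPCAM was at 0.362 and 0.436 CPM. ERBB2 was between 59.0 and 110.2 CPM, so its transcript was not absent. More genes had at least 1 count after MBZ, 24416 against 22278 in the MDA-MB-231 line and 27239 against 23015 in SUM159 cells. Genes of the G2 and M phases of the cell cycle moved in opposite directions, with 21 of 25 at least 1.5-fold lower and 0 higher in the MDA-MB-231 line and 25 of 25 at least 1.5-fold higher in SUM159 cells. Of all genes compared, 15.8% were lower and 18.3% higher by this measure in the MDA-MB-231 line, and 21.7% lower and 21.5% higher in SUM159. The part of the G2 and M phase genes in the results below was not tested. Since the libraries are of bulk RNA, fewer cells with a transcript and less of it in each cell cannot be told apart.

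The upstream sequences of PTCH1 and HHIP are printed here because both are target genes of the GLI factors and differed most between the lines in their response to MBZ. RefSeq windows on GRCh38.p14, reaching from 250 bases before to 50 after a transcription start, were at hand for 7 of the 9 genes in 13 windows, and GLI1 and GLI3 had none. The GLI binding consensus GACCACCCA was searched exactly on both strands, where it reads TGGGTGGTC on the other strand. It was present in 83 of 35116 windows of 300 bases, a share of 0.236%. Among the 13 windows it was in 1 of those of PTCH1. Only that PTCH1 window is printed here, and the other PTCH1 windows hold no exact copy. The PTCH1 sequence, chr9:95509267-95509516 on the minus strand, ends just before the start at base 95509266, and the capitals mark the motif, which begins at position -172 from that start. It lies within 6 annotated PTCH1 transcripts that begin farther upstream and in no annotated exon. The HHIP sequence, chr4:144645906-144646155 on the plus strand, ends just before the start of HHIP at base 144646156. It holds no exact copy of these letters, and 82 of its bases are exonic in HHIP-AS1, a long non-coding RNA on the opposite strand.
PTCH1: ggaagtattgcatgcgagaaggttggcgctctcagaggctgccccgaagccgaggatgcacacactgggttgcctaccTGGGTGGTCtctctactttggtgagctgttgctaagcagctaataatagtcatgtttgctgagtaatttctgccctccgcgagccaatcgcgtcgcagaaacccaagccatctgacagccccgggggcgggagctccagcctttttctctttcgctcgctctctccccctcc
HHIP: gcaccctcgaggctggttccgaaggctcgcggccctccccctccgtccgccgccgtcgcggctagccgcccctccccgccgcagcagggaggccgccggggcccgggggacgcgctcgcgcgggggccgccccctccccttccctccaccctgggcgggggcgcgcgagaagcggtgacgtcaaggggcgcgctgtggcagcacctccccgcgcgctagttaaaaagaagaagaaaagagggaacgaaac

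SMO, which encodes the signal transducer that the pathway depends on (chromosome 7, 129188633 to 129213545, GRCh38, plus strand, 12 exons in its main transcript), was at or near the limit of detection. It had 0 counts in both MDA-MB-231 libraries, 2 in SUM159 cells with DMSO and 1 with MBZ, which is 3 of 79653405 counts in all. With 3 counts as the limit that a count of 0 allows, SMO could stand at up to 0.129 CPM with DMSO and 0.158 CPM with MBZ in the MDA-MB-231 line, and the exact 95% counting intervals for 0 counts reach 0.159 and 0.194 CPM. Of the exonic bases of SMO, 97.3% are shared with no other annotated gene, and no base is shared with a gene on the same strand. The antisense RNA that shares 129 of them had 0 counts in the 4 libraries. SMO was the 1 gene of the 9 with a mean under 10 counts in each line, so no fold change is given for it. The annotation release that the authors counted with is not given in the sources used here, and whether it bears on these low counts was not tested.

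PTCH1, the ligand receptor (chromosome 9, 95442980 to 95517057, minus strand, 24 exons), was lower after MBZ in SUM159 cells. It had 189 counts (8.13 CPM) in the MDA-MB-231 line with DMSO, 182 (9.57 CPM) with MBZ, 236 (14.2 CPM) in SUM159 cells with DMSO and 143 (6.93 CPM) with MBZ. The SUM159 DMSO library was thus the highest of the 4 and the SUM159 MBZ library the lowest. The log2 fold change of MBZ over DMSO was -1.04 in SUM159 cells, with a 95% counting interval from -1.35 to -0.73, and 0.22 in the MDA-MB-231 line, from -0.08 to 0.52. Fold changes were taken after TMM within the line, so they differ slightly from ratios of the printed levels. Their Clopper-Pearson intervals cover counting error only and compare libraries, not conditions. An antisense RNA shares 711 exonic bases of PTCH1 and had 0, 2, 10 and 2 counts.

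SUFU, the inhibitor that binds GLI proteins (chromosome 10, 102503972 to 102633535, plus strand, 12 exons), was the most abundant of the 9 genes per length of exon in each library. It had 1144 counts (49.2 CPM) in the MDA-MB-231 line with DMSO and 507 (26.7 CPM) with MBZ, against 829 (50.0 CPM) and 803 (38.9 CPM) in SUM159 cells. The levels with DMSO were nearly equal in the lines, and the lowest level was that of MDA-MB-231 cells with MBZ. The log2 fold change was -0.90 (interval -1.06 to -0.75) in the MDA-MB-231 line, which is past 1.5-fold, and -0.36 (-0.50 to -0.22) in SUM159 cells, which is not. With libraries scaled by total counts alone, the SUM159 value was -0.061.

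**Figure D1:**
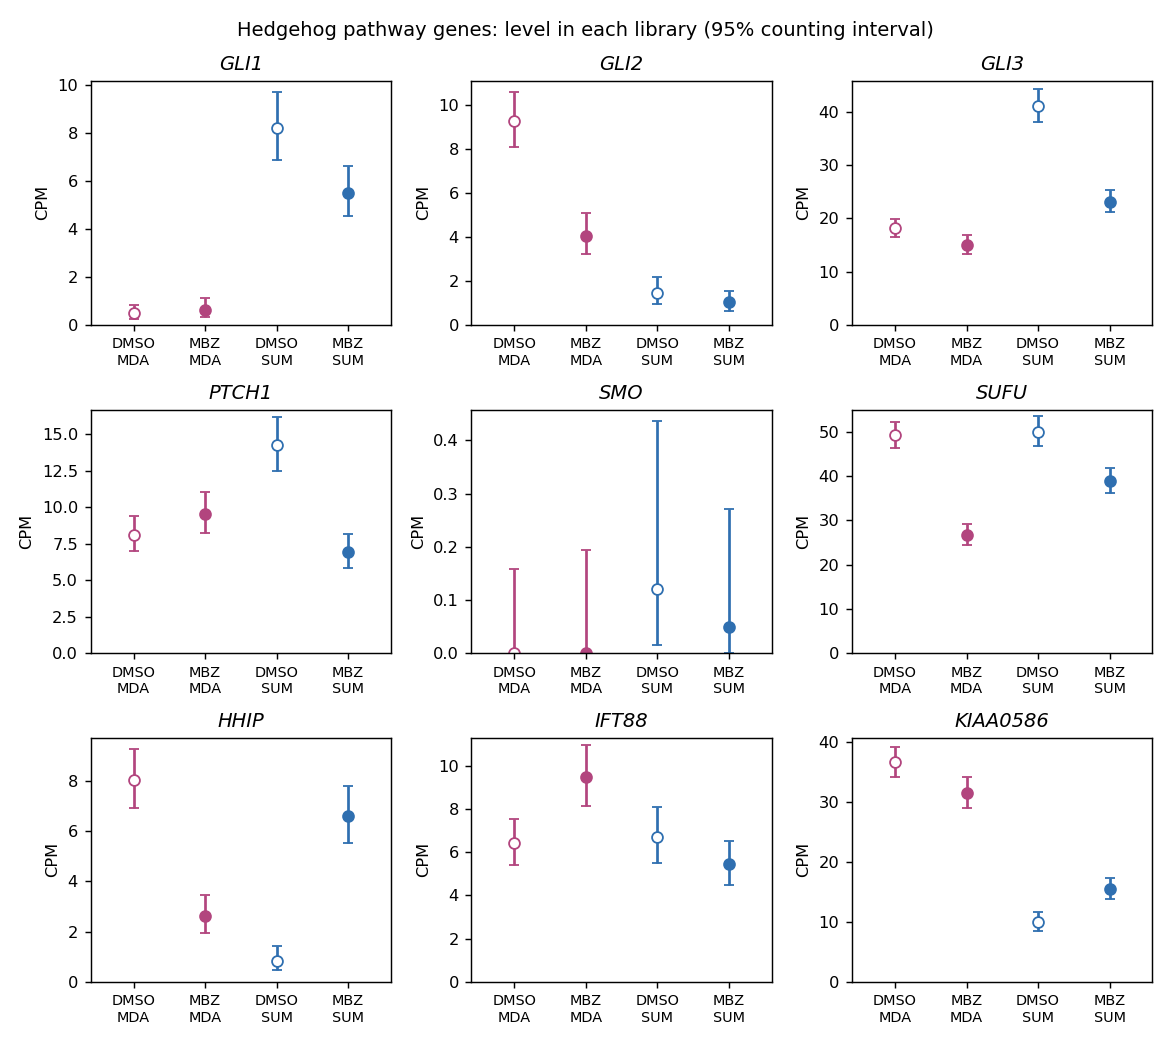
Level of each Hedgehog pathway gene in the 4 libraries, in CPM on a linear axis from 0 with its own scale in each panel. Open points are DMSO and filled points MBZ, with MDA-MB-231 in pink and SUM159 in blue, and bars are 95% counting intervals of 1 library each. GLI1 stands at or under 0.631 CPM in the MDA-MB-231 line and HHIP crosses between the lines, while SMO lies near 0 throughout.

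Among the GLI factors, GLI1 transcripts were mostly in SUM159 cells and GLI2 transcripts in the MDA-MB-231 line. GLI1 (chromosome 12, 57459785 to 57472268, plus strand, 12 exons) had 11 counts (0.473 CPM) in the MDA-MB-231 line with DMSO and 12 (0.631 CPM) with MBZ. In SUM159 cells it had 136 counts (8.21 CPM) with DMSO and 114 (5.53 CPM) with MBZ. The lines did not overlap. GLI1 was 17.1-fold higher in SUM159 than in the MDA-MB-231 line with DMSO and 8.68-fold higher with MBZ. In the MDA-MB-231 line the depth could not show a change after MBZ, since the interval of the log2 fold change of 0.39 ran from -0.91 to 1.72. In SUM159 cells the change was -0.57 (-0.94 to -0.20), a level 1.48-fold lower and just short of 1.5-fold.

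GLI2 (chromosome 2, 120735623 to 120992653, plus strand, 14 exons) had 215 counts (9.25 CPM) in the MDA-MB-231 line with DMSO, 77 (4.05 CPM) with MBZ, and 24 (1.45 CPM) and 21 (1.02 CPM) in SUM159 cells. Both MDA-MB-231 libraries were above both SUM159 libraries, 6.36-fold with DMSO and 3.96-fold with MBZ. After MBZ the log2 fold change was -1.21 (-1.60 to -0.83) in the MDA-MB-231 line, a 2.31-fold lower level. In SUM159 cells it was -0.51 (-1.43 to 0.40), an interval that holds both no change and a change of the size seen in the MDA-MB-231 line.

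GLI3 (chromosome 7, 41960949 to 42264100, minus strand, 15 exons) was transcribed in both lines. It had 421 counts (18.1 CPM) and 285 (15.0 CPM) in the MDA-MB-231 line and 679 (41.0 CPM) and 477 (23.1 CPM) in SUM159 cells, with DMSO and MBZ in that order. The SUM159 DMSO library stood highest. The log2 fold change after MBZ was -0.83 (-0.998 to -0.65) in SUM159 cells, past 1.5-fold, and -0.29 (-0.51 to -0.07) in the MDA-MB-231 line. With scaling by total counts alone, the SUM159 value was -0.52 and no longer past 1.5-fold, and the MDA-MB-231 value was -0.024.

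Levels of different genes were compared per kilobase of annotated exon. By this measure GLI3 made up 50.2% of the summed GLI level in the MDA-MB-231 line with DMSO and 62.1% with MBZ, and 59.9% and 55.5% in SUM159 cells. The remainder was mostly GLI2 in the MDA-MB-231 line, at 45.8% with DMSO and 29.99% with MBZ, and mostly GLI1 in SUM159 cells, at 36.3% and 40.1%. GLI1 made up 3.97% and 7.91% in the MDA-MB-231 line, and GLI2 made up 3.78% and 4.37% in SUM159 cells. With the length of the main transcript in place of all exons, GLI3 made up between 60.4% and 71.1%, and the order of the 3 genes in each library was as before.

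**Figure D2:**
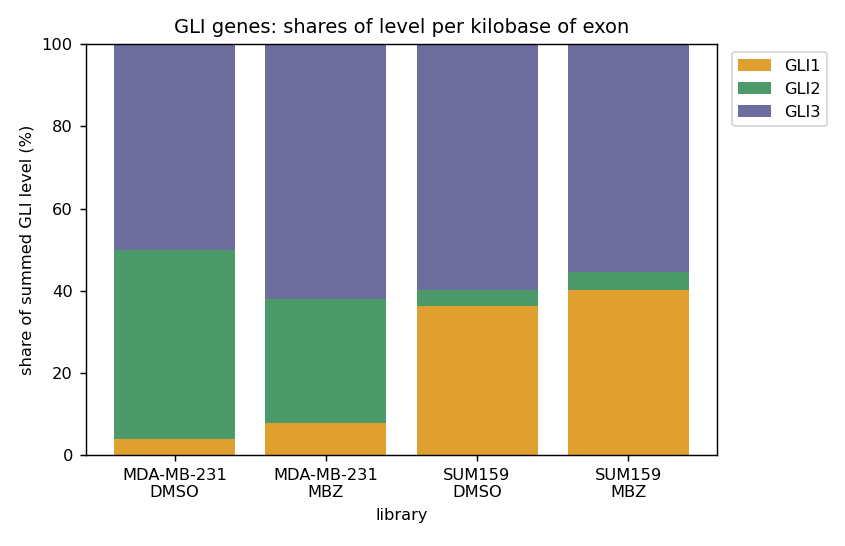
Stacked bars of the share, in percent, of GLI1, GLI2 and GLI3 in their summed CPM per kilobase of exon, for each of the 4 libraries. GLI2 is the second component beside GLI3 in the MDA-MB-231 line (45.8% with DMSO) and GLI1 in SUM159 cells (36.3% with DMSO).

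HHIP, the ligand-binding target gene (chromosome 4, 144646156 to 144745271, plus strand, 13 exons), had the largest change of the 8 genes compared in each line, in opposite directions. It had 187 counts (8.05 CPM) in the MDA-MB-231 line with DMSO and 50 (2.63 CPM) with MBZ, but 14 (0.845 CPM) in SUM159 cells with DMSO and 136 (6.59 CPM) with MBZ. The level was thus higher in the MDA-MB-231 line with DMSO and in SUM159 cells with MBZ. The log2 fold change was -1.63 (-2.11 to -1.17) in the MDA-MB-231 line, 3.09-fold lower, and 2.95 (2.17 to 3.87) in SUM159 cells, 7.75-fold higher. Ordered from the lowest change, HHIP was gene 170 of 15142 compared in the MDA-MB-231 line and gene 15403 of 15674 in SUM159 cells.

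HHIP-AS1, whose exons share 813 bases with those of HHIP on the opposite strand, had 86, 44, 8 and 28 counts in the same order of libraries. Its log2 fold changes of -0.69 (-1.25 to -0.15) and 1.48 (0.32 to 2.84) had the signs of those of HHIP. Whether counting used the strand is not given in the sources used here. It is thus unknown to which gene, if either, reads of the shared bases were given. Of the exonic bases of HHIP, 91.7% are shared with no other gene. The G2 and M phase genes had the same signs as HHIP, with median log2 fold changes of -0.95 and 2.36, and their part in its change was not tested.

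The target genes among the 9 did not move together. In SUM159 cells GLI1 and PTCH1 had log2 fold changes of -0.57 and -1.04, and HHIP one of 2.95. In the MDA-MB-231 line GLI1 and PTCH1 had values of 0.39 and 0.22 with intervals that include 0, and HHIP one of -1.63.

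Of the ciliary genes, IFT88 (chromosome 13, 20567138 to 20691444, plus strand, 26 exons) had 149 counts (6.41 CPM) and 180 (9.47 CPM) in the MDA-MB-231 line and 111 (6.70 CPM) and 112 (5.43 CPM) in SUM159 cells, with DMSO and MBZ in that order. The MDA-MB-231 MBZ library was the highest. The log2 fold change was 0.54 (0.22 to 0.87) in the MDA-MB-231 line, 1.46-fold higher and just short of 1.5-fold, and -0.30 (-0.70 to 0.09) in SUM159 cells. With scaling by total counts alone, it was 0.81 in the MDA-MB-231 line and past 1.5-fold.

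KIAA0586 (chromosome 14, 58427385 to 58551297, plus strand, 31 exons) had 849 counts (36.5 CPM) and 598 (31.5 CPM) in the MDA-MB-231 line, above its 165 (9.96 CPM) and 318 (15.4 CPM) in SUM159 cells. The log2 fold change was 0.63 (0.35 to 0.91) in SUM159 cells, 1.55-fold higher and just past 1.5-fold. In the MDA-MB-231 line it was -0.23 (-0.39 to -0.08), and 0.033 with scaling by total counts alone, so its direction there depended on the scaling. The gene shares 766 exonic bases with HNRNPCP1, a pseudogene on the same strand with 19, 12, 4 and 31 counts, and 140 with TIMM9 on the other strand.

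Counted together, 3 of the 8 genes compared in the MDA-MB-231 line were at least 1.5-fold lower after MBZ (GLI2, SUFU and HHIP) and 0 were at least 1.5-fold higher. Over all 15142 genes compared in that line, 15.8% were lower and 18.3% were higher by this measure. In SUM159 cells, 2 of 8 were lower (GLI3 and PTCH1) and 2 were higher (HHIP and KIAA0586), where 21.7% of 15674 genes were lower and 21.5% higher. The 8 genes are few, and their counts were not tested against these shares. With scaling by total counts alone, 2 were higher and 3 lower in the MDA-MB-231 line, and 2 higher and 1 lower in SUM159 cells. This scaling moved the median log2 fold change over all genes compared by 0.27 in the MDA-MB-231 line and 0.30 in SUM159 cells.

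None of the 8 genes was past 1.5-fold in the same direction in both lines, against 10.8% of the 13733 genes compared in both. HHIP was past it in opposite directions, as were 6.04% of those genes. GLI2, GLI3 and SUFU had negative log2 fold changes in both lines, though those of GLI3 in the MDA-MB-231 line and SUFU in SUM159 were near 0 with total counts. The other 5 had opposite signs, but with total counts KIAA0586 was positive in both lines (0.033 and 0.93) and IFT88 stood at -0.0021 in SUM159.

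**Figure D3:**
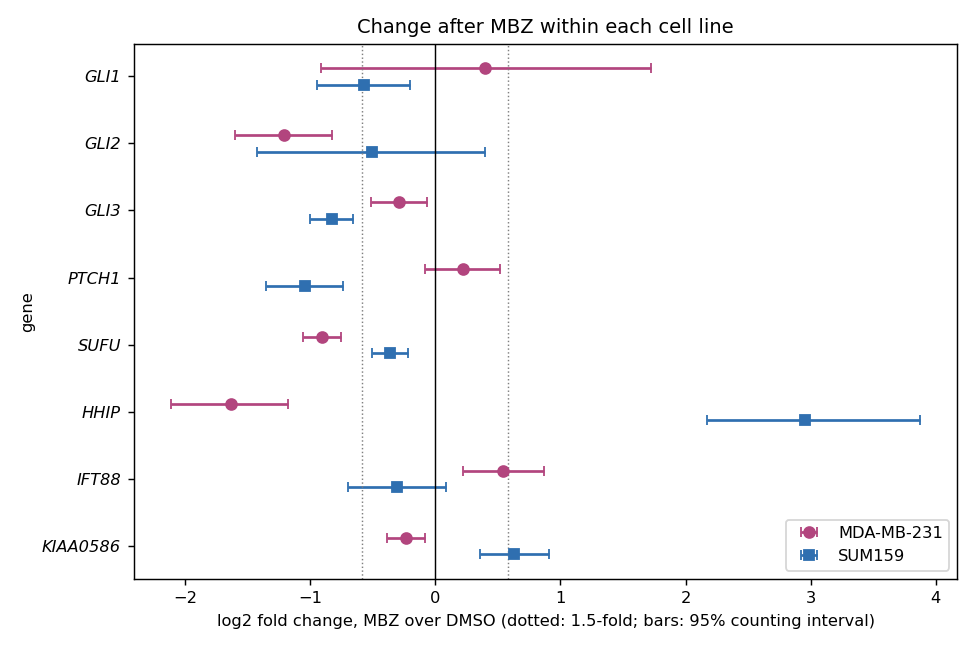
Log2 fold change of MBZ over DMSO for the 8 genes with enough counts, with MDA-MB-231 as pink circles and SUM159 as blue squares. Bars are 95% counting intervals of 1 library against 1 and dotted lines mark 1.5-fold. HHIP lies at -1.63 and 2.95, on opposite sides of 0.

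A change alike in both lines was tested with edgeR's quasi-likelihood test over the 4 libraries, with the lines in the place of replicates. It called 0 of the 8 genes, with Benjamini-Hochberg adjusted p from 0.724 for SUFU to 0.974 for GLI1 in edgeR. Unadjusted, 0 of the 8 were under 0.05, and SUFU had the smallest value, 0.0868. Over all genes the edgeR test called 1 of 16100 (0.00621%) past the adjusted threshold, and 629 higher and 521 lower at an unadjusted p under 0.05. DESeq2's Wald test called 42 higher and 56 lower, none of them among the 8. A p that misses the threshold does not show that MBZ left a gene as it was.

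The difference between the responses of the lines was put beside its counting interval, since no residual is left to test it. SUM159 minus MDA-MB-231, the difference of the log2 fold changes was 4.58 for HHIP (3.64 to 5.61), 0.86 for KIAA0586 (0.55 to 1.18) and 0.54 for SUFU (0.33 to 0.75). It was -1.26 for PTCH1 (-1.69 to -0.82), -0.85 for IFT88 (-1.36 to -0.34) and -0.54 for GLI3 (-0.82 to -0.25). For GLI1 and GLI2 the intervals, -2.35 to 0.40 and -0.31 to 1.69, include 0. The intervals of the other 6 genes exclude 0, and the spread between cultures is unknown.

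The levels themselves were compared between the lines over both treatments, with treatment as a term of the same model. SUM159 cells had more GLI1 (log2 difference 3.65, SE 0.65, adjusted p = 0.0102 in edgeR) and less GLI2 (-2.29, SE 0.59, adjusted p = 0.0345 in edgeR) and KIAA0586 (-1.40, SE 0.36, adjusted p = 0.0356 in edgeR) than the MDA-MB-231 line. These were 3 of the 8 genes, where 21.5% of 16100 genes passed. All 3 kept their direction in both treatments. GLI3 was higher in SUM159 cells by 0.95 (SE 0.33) with an adjusted p of 0.0849 in edgeR. For SUFU, IFT88, HHIP and PTCH1, edgeR's adjusted p was between 0.470 and 0.785. HHIP and PTCH1 changed the order of the lines with treatment, from -3.24 with DMSO to 1.32 with MBZ for HHIP and from 0.81 to -0.47 for PTCH1, as the log2 ratio of SUM159 over MDA-MB-231. In this test the treatments stand in for replicates, so the p-values measure only the spread between these libraries.

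**Figure D4:**
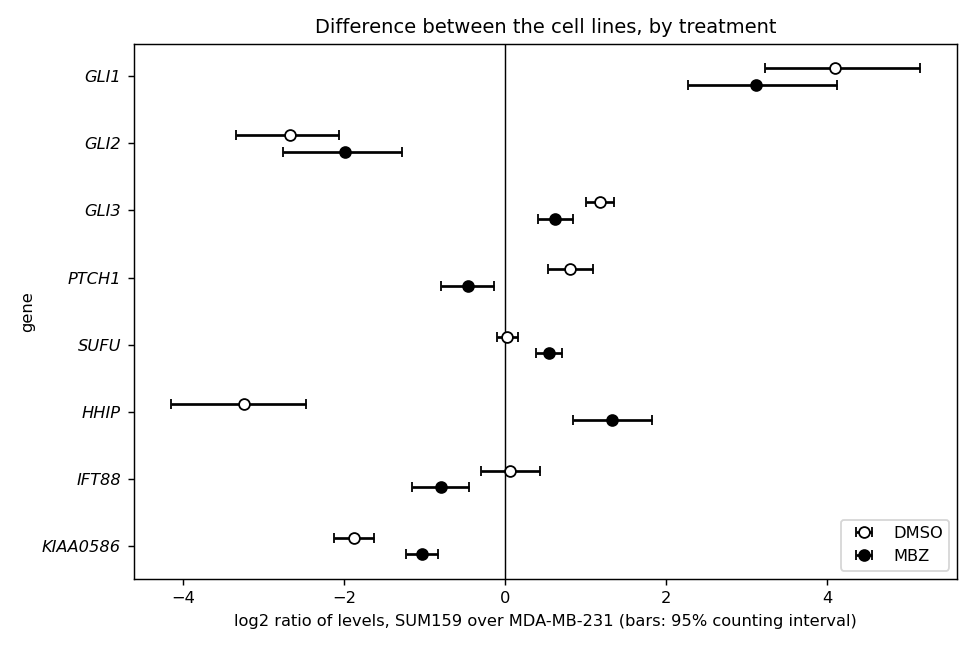
Log2 ratio of the level in SUM159 over that in the MDA-MB-231 line for each gene, with DMSO as open and MBZ as filled points and 95% counting intervals. GLI1 lies above 0 and GLI2 and KIAA0586 below 0 in both treatments, and HHIP moves from -3.24 to 1.32.

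Ordered per kilobase of exon in the MDA-MB-231 line with DMSO, SUFU (7.15 CPM per kilobase) came before KIAA0586 (2.06), GLI3 (1.31), GLI2 (1.20), IFT88 (1.06), HHIP (0.674), PTCH1 (0.471) and GLI1 (0.104). In SUM159 cells with DMSO the order was SUFU (7.27), GLI3 (2.97), GLI1 (1.80), IFT88 (1.11), PTCH1 (0.824), KIAA0586 (0.562), GLI2 (0.188) and HHIP (0.0708). The middle of each order depends on which length is used, since with the main transcript's length IFT88 stood above GLI3 in the MDA-MB-231 line. SUFU was at the top with either length and, SMO aside, GLI1 was at the bottom of the MDA-MB-231 order and HHIP at that of SUM159.

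GLI1 varied most over the 4 libraries, and the genes with the most similar centred log2 profiles were looked up among 11152 genes whose counts averaged 100 or more and were at least 10 in every library. The nearest were CORO2B (184, 150, 1707 and 1405 counts, distance 0.253), GJA1 (249, 208, 2391 and 1814 counts, distance 0.253) and ERAP2 (172, 174, 1429 and 1532 counts, distance 0.281). CORO2B encodes an actin-binding coronin, GJA1 the gap junction protein connexin 43, and ERAP2 an aminopeptidase of antigen processing. Like GLI1, all 3 had more counts in both SUM159 libraries than in either MDA-MB-231 library, which follows from how they were picked.

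The rest of the pathway was described by lists of ligands, receptors, regulators, target genes and ciliary genes. Ligand transcripts were few. SHH had 44, 27, 0 and 15 counts and DHH 23, 14, 0 and 4, while IHH had at most 3. The SHH and DHH log2 fold changes in the MDA-MB-231 line, -0.43 and -0.44, had intervals that include 0. These ligand genes were chosen for naming after their values were seen. Of 7 ligand and release genes compared in the MDA-MB-231 line, 0 were at least 1.5-fold higher and 1 lower, and of 3 in SUM159 cells 1 was higher and 0 lower, beside all-gene shares of 18.3% higher and 15.8% lower in the MDA-MB-231 line and 21.5% and 21.7% in SUM159. The gene past 1.5-fold in each line was SCUBE3, which encodes a secreted protein of a family that helps to release ligand, at -0.96 in MDA-MB-231 and 0.71 in SUM159 cells.

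Among the receptors beside PTCH1, the co-receptor gene CDON was lower after MBZ in both lines. CDON counts were lower with MBZ, from 1550 to 517 in the MDA-MB-231 line and from 994 to 190 in SUM159 cells. The log2 fold changes were -1.31 (-1.46 to -1.17) and -2.70 (-2.94 to -2.48). The co-receptor gene GAS1 had 0 counts in both MDA-MB-231 libraries, and 601 with DMSO and 98 with MBZ in SUM159 cells, which was -2.93 (-3.26 to -2.62) as a log2 fold change. BOC, also a co-receptor gene, had 160, 121, 58 and 36 counts in the 4 libraries, and its change in SUM159 was -1.002 on the log2 scale. In SUM159 cells 3 of 4 receptor genes compared were lower and 0 higher, with a median of -1.85, where 21.7% of all genes were lower. In the MDA-MB-231 line 1 of 3 compared was lower (CDON) and 1 was higher, where 15.8% of all genes were lower and 18.3% higher. The median there was -0.13, and 0.14 with libraries scaled by total counts alone.

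Of 22 other signalling regulators compared, 1 was higher and 4 were lower in the MDA-MB-231 line (median -0.18) and 1 was higher and 6 were lower in SUM159 cells (median -0.30). The shares over all genes were 18.3% higher and 15.8% lower in the MDA-MB-231 line and 21.5% and 21.7% in SUM159, and the counts of these and the next lists are to be read against them. Lower in both lines were GPR161, a ciliary receptor that restrains the pathway through protein kinase A (-1.21 and -0.67), and ARRB1, a beta-arrestin (-0.84 and -2.08). GPR161 had 1109, 397, 510 and 398 counts, and ARRB1 1623, 752, 419 and 123. The medians of the 22 regulators were 0.084 and 0.00059 when libraries were scaled by total counts alone, so their sign depended on the scaling.

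Other GLI target genes split in both directions. In the MDA-MB-231 line 4 of 10 compared were higher and 3 lower, with a median of -0.12, and in SUM159 cells 2 of 13 were higher and 4 lower, with a median of -0.26, beside 18.3% and 15.8% of all genes in the MDA-MB-231 line and 21.5% and 21.7% in SUM159. Scaled by total counts alone, the list medians were 0.14 in the MDA-MB-231 line and 0.038 in SUM159 cells. CCND2, a cyclin gene, had 8, 64, 211 and 105 counts, so few in the MDA-MB-231 line with DMSO. Its log2 fold change was 3.25 (2.21 to 4.54) in MDA-MB-231 and -1.32 (-1.67 to -0.98) in SUM159 cells. FOXM1, a transcription factor of the G2 and M phases, was at -0.93 and 2.08, and SOX9, a developmental transcription factor, at -1.05 and 2.69. The signs of FOXM1 and SOX9 were thus those of HHIP, and those of CCND2 the reverse. Between the lines, 4 of 13 target genes tested were higher and 2 lower in SUM159, where 21.5% of all genes passed in either direction. Those higher were FOXF1 (0, 1, 364 and 487 counts, adjusted p = 0.000674 in edgeR), FOXL1 (0, 0, 62 and 61 counts, adjusted p = 0.0073 in edgeR), MYCN (0, 0, 85 and 17 counts, adjusted p = 0.0098 in edgeR) and SNAI1 (23, 118, 430 and 446 counts, adjusted p = 0.0252 in edgeR). All 4 were named after their values were seen. Those lower were BMP4 (7376, 6162, 162 and 25 counts, adjusted p = 0.0030 in edgeR) and SOX9 (4790, 1916, 16 and 129 counts, adjusted p = 0.0077 in edgeR).

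Intraflagellar transport genes other than IFT88 had medians of 0.05 in the MDA-MB-231 line (3 of 31 higher, 3 lower) and -0.26 in SUM159 cells (2 higher, 8 lower, where 21.7% of all genes were lower). KIF17, a kinesin motor gene with 18, 26, 15 and 43 counts, was higher in both lines, at 0.80 and 1.20, though the interval in the MDA-MB-231 line, -0.12 to 1.76, includes 0. DYNC2I2, a subunit of the retrograde dynein, was at -1.43 and 0.63. Genes of the distal centriole and transition zone, the compartment of KIAA0586, had medians of 0.04 (5 of 28 higher, 2 lower) and -0.03 (2 higher, 3 lower). TCTN1 was lower in both lines, at -0.65 and -0.86, and FBF1, a distal appendage gene, was at -0.67 and 1.17. Over all genes compared, the median was -0.018 in the MDA-MB-231 line and -0.034 in SUM159 cells. Scaled by total counts alone, the medians of the intraflagellar transport genes were 0.32 and 0.037. Those of the distal centriole and transition zone genes were then 0.31 and 0.27, and those over all genes 0.25 and 0.27. No gene of these lists was called in the edgeR test of a shared change, which called 1 of 16100 genes.

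**Figure D5:**
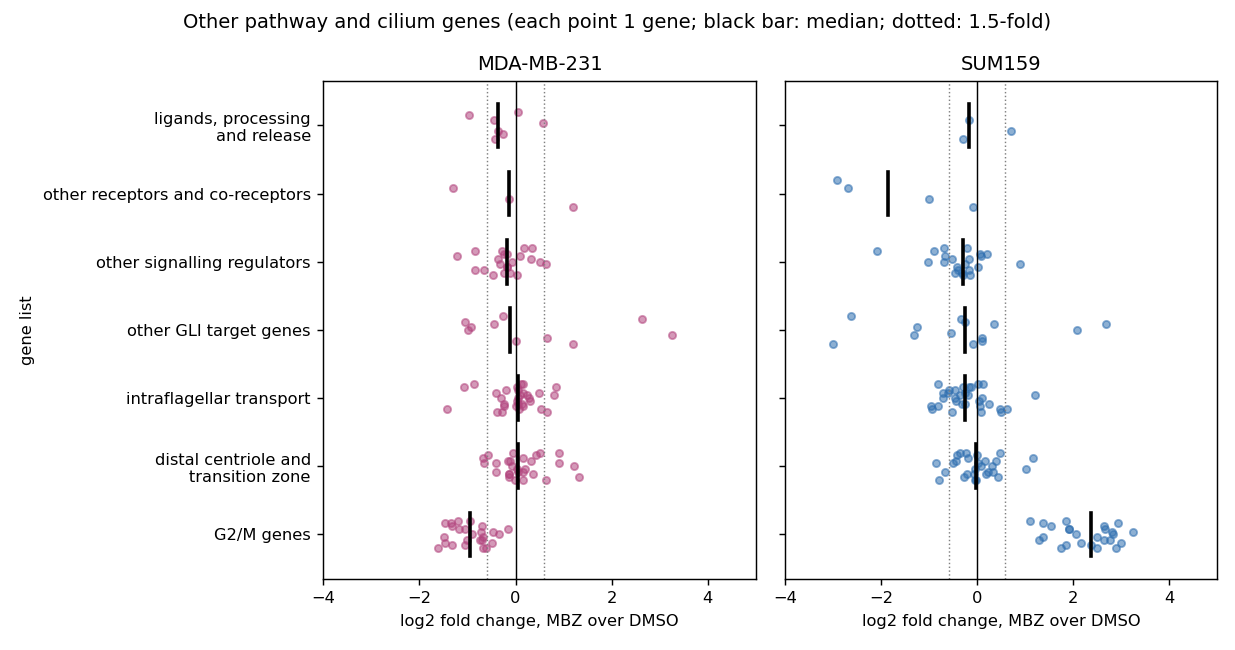
Log2 fold change of MBZ over DMSO for the genes of each list whose counts in a line averaged 10 or more, with 1 point a gene, the list's median as a black bar and dotted lines at 1.5-fold. The receptor list has its median at -1.85 in SUM159 cells, and the G2/M genes lie below 0 in the MDA-MB-231 line and above 0 in SUM159 cells.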

How the data were processed

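Poly(A) RNA of 4 cultures was sequenced as paired reads. Per the submitters' processing notes and the study's methods, the authors mapped reads to GRCh38 with STAR 2.5 with a mismatch setting of 2, counted them per gene with HTSeq 0.6.1 in union mode, and used edgeR 3.16.5. The deposited values are raw whole-number counts without normalization. The annotation release and the strand setting are not given in the sources used here. Of 58735 genes, 58207 matched a symbol and 528 did not. Models and overlaps are from GENCODE 44 on GRCh38. The count of unused per-sample columns was 0.

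Samples were grouped by their labels. Fold changes came from edgeR 4.0.16 in R 4.3.3 as differences of log2 CPM (prior count 0.125) after TMM over the 2 libraries of a line. A call needed a fold change of 1.5 and a mean of 10 counts. Clopper-Pearson intervals (95%) and floors (3 counts) cover counting error only, not the spread between cultures. Copies made by PCR carry no molecular identifier and cannot be counted once, so the intervals may be too narrow even for counting error. Tests over 4 libraries used edgeR's quasi-likelihood test with cell line and treatment as terms, filterByExpr and Benjamini-Hochberg adjustment under 0.05, and the common BCV was 0.323. SMO did not pass that filter. Fold changes against a library at 0 counts were not used.

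The alternatives were DESeq2 1.42.0 size factors, total counts, TMM over 4 libraries, a prior count of 2, a fold of 2, other count minimums, an interval excluding 0, RLE, DESeq2's Wald test, no filter, and a model without the other factor. DESeq2 gave no adjusted p for 2810 genes in the shared test, and these stayed out of its counts. The 9 genes and the 7 lists were chosen with earlier results of these data known. Genes that may be named are the 9, the genes of a list past 1.5-fold the same way or in opposite directions in both lines, the 3 most abundant of a list per length, and the 3 genes most like GLI1. SHH, DHH, IHH, FOXF1, FOXL1, MYCN and SNAI1 were named after their values were seen. The scripts were tested on simulated data. A result for 1 list member is not reported here. The study's other assays were not used here.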

Additional observations from a re-analysis of the deposited data

Results flagged for a closer look

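HHIP had log2 fold changes of opposite sign in the lines, -1.63 in MDA-MB-231 and 2.95 in SUM159 cells. KIAA0586 also differed in sign, at -0.23 in MDA-MB-231 and 0.63 in SUM159 cells, but its MDA-MB-231 value was 0.033 when libraries were scaled by total counts alone. Both counting intervals of each gene exclude 0 under TMM. With 1 library per condition, neither difference between the lines was tested against a spread between cultures.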

How the results depend on the processing

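With scaling by total counts alone, 2 of the genes (GLI1 and IFT88) were higher after MBZ in MDA-MB-231 cells, where 0 were with TMM, and 1 (PTCH1) was lower in SUM159 cells, where 2 were. With a fold change of 2, 1 (HHIP) was higher and 1 (PTCH1) lower in SUM159 cells, and with a mean of at least 100 counts 1 (KIAA0586) was higher, because HHIP has a mean of 75 counts there. With every gene of at least 1 count, 3 were lower in SUM159 cells, the added gene being SMO with 2 and 1 counts, which lies under the limit of 3. The 35 other recomputed counts, this one included, of genes stayed within 1.5 times, and of the recomputed single-gene fold changes 58 moved by less than their counting interval and 6 by more. All 6 came from scaling by total counts, among them KIAA0586 in MDA-MB-231 cells, which went from -0.23 to 0.033. The shared test called none of the genes of the 9 that it tested under any alternative, and SMO was tested only without the filter. Over all genes the shared test called 1 with TMM, and 153 higher and 145 lower without a filter on low counts. With DESeq2 it called 42 higher and 56 lower. GLI1, GLI2 and KIAA0586 differed between the lines under every alternative run, with adjusted p from 6.5e-07 to 0.0102 for GLI1, from 0.0011 to 0.0402 for GLI2 and from 0.0016 to 0.0367 for KIAA0586. The shared test already has cell line as a block, and within a line there is 1 library per condition, so replicate numbers pair nothing further. Depth limits GLI1 in MDA-MB-231 cells, GLI2 in SUM159 cells and SMO in both lines, and no condition has a replicate.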
